A study of Mus musculus with 9 samples.

Results

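A group of 9 non-collagen matrix genes of cartilage were followed through the growth plate: aggrecan (Acan), versican (Vcan), link protein (Hapln1), the 4 matrilins (Matn1, Matn2, Matn3 and Matn4), cartilage oligomeric matrix protein (Comp) and cartilage intermediate layer protein (Cilp). They were taken by name, as every probe set annotated to 1 of these genes alone, a rule that uses no measured value. All 9 genes were on the array, with 21 probe sets, out of 18193 genes in all. Messenger RNA had been measured in the round, flat and hypertrophic cell layers of the proximal tibia of wild-type Black Swiss mice at postnatal day 0, and the labels give no treatment, no sex and no altered allele. Each layer was cut by hand from frozen sections of unfixed limbs and hybridised to 3 arrays, 1 for each of 3 litters, with 18 to 20 tibiae of a litter of 9 to 10 pups pooled in a sample. The 9 arrays therefore form 3 sets matched by litter, and n = 3 litters in every comparison. No step of the protocol isolated chondrocytes, so each value is an average over all cells in the dissected piece, and fewer cells of a type and less RNA per cell cannot be told apart.

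Aggrecan is the large chondroitin sulfate proteoglycan that holds water in cartilage, and it binds hyaluronan chains in a complex that link protein stabilises. Versican is a related hyaluronan-binding proteoglycan found in embryonic and fibrous connective tissue. Matrilins and Comp are oligomeric adaptor proteins that connect collagen fibrils and proteoglycans, and Comp belongs to the thrombospondin family. Cilp is a secreted glycoprotein of the cartilage matrix that binds transforming growth factor beta.

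The layer labels were set against marker genes. The summed signal of 6 round-layer markers (Prg4, Cytl1, Ucma, Barx1, Gdf5 and Sfrp5) was 31135 to 44367 on the round arrays, 1499.0 to 2708 on the flat arrays and 641 to 1004 on the hypertrophic arrays. Most of the round sum came from Prg4 and Cytl1, with round means of 15342 and 16114. Sfrp5 did not set the round layer apart from the flat layer, with means of 201.9, 198.3 and 147.7 in round, flat and hypertrophic samples. The 5 hypertrophic-layer markers on the array (Col10a1, Ibsp, Mmp13, Alpl and Ihh) summed to 6661 to 11189.8, 28384 to 50190.1 and 93529.9 to 109528 in the same order of layers. Col2a1, the collagen that defines cartilage, had mean signals of 32059, 21585 and 18514. The sum over 5 chondrocyte markers was 66750 to 91786 on the round, 56852 to 84702 on the flat and 61743.5 to 68317 on the hypertrophic arrays. By limma (adjusted p below 0.05), 2 of the 5 fell and 0 rose in the flat relative to the round layer. In the hypertrophic layer 3 fell and 0 rose relative to the round layer, and 2 fell and 1 rose relative to the flat layer. Over all genes tested, 17.0%, 25.1% and 11.3% were called in these 3 comparisons, in either direction. Signals here are MAS5 intensities on a linear scale, with array medians of 123 to 152, and levels of different probe sets cannot be ranked against each other. RNA integrity, read as the ratio of 3' to 5' control probe sets, set apart the round array of litter 1: the actin ratio there was 4.25 (elsewhere 1.45 to 2.06) and the Gapdh ratio 2.59 (elsewhere 0.922 to 1.28). That array was the lowest round array in 12 of the 16 probe sets of these genes that passed the filter on dim signals, and in 40.7% of all probe sets tested. Litter 1 also had the lowest flat array in 8 of the 16 (30.4% of all) and the lowest hypertrophic array in 10 of the 16 (32.1% of all). The actin ratios of those 2 arrays were 2.06 and 1.66.

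The start regions of 4 of the genes are shown because their levels ran differently through the layers: Acan and Hapln1 fell in the flat relative to the round layer and were not called between hypertrophic and flat by their brightest probe sets, Cilp stepped down at both boundaries, and Matn1 was highest in the flat layer. Each window runs from 250 bases before to 50 bases after an annotated transcript start of RefSeq on GRCm38.p6, 5′ to 3′ on the gene's strand. Capitals mark matches, on either strand, to 5 short motifs. These were ACAAT, a core found in sites for SOX factors, and a longer form of it, ACAAAG. The others were the box of letters CCAAT, the so-called GC box with the letters GGGCGG, and a motif like the TATA box, written TATANAA, in which N is any base.
Acan (chr7:79052976-79053275, plus strand): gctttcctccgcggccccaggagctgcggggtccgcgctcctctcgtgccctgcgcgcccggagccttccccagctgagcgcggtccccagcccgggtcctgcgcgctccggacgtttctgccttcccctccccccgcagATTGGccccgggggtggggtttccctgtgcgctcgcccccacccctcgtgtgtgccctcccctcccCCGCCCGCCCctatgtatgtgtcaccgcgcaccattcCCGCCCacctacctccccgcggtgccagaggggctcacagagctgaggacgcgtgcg
Hapln1 (chr13:89540386-89540685, plus strand): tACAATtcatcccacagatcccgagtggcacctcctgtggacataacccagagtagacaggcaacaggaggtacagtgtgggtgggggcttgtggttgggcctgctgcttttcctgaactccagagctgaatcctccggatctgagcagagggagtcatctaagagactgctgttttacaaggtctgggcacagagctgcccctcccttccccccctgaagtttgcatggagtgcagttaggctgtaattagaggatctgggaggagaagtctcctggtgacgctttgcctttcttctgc
Matn1 (chr4:130944135-130944434, plus strand): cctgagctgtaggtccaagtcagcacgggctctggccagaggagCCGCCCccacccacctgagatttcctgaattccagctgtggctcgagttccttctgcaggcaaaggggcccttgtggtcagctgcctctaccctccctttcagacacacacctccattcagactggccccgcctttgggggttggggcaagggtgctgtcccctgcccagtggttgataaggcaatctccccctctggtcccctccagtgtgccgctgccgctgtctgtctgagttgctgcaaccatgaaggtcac
Cilp (chr9:65264930-65265229, plus strand): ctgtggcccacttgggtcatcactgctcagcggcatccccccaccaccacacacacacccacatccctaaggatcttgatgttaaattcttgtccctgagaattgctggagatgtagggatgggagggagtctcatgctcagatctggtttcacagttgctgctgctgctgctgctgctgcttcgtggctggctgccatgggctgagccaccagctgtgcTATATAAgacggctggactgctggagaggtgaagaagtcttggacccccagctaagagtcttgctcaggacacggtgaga

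Windows were found for 7 of the 9 genes, Comp and Matn2 being the others, and Matn4 had a pair of start sites. ACAAT occurred once among them, in Hapln1 at position -249, against 31.0% of 32851 windows in the whole reference table, and ACAAAG in none, against 18.7%. GGGCGG occurred in Acan and Matn3 at 3 places each (at -44, -40 and -7 in Acan, the first and the second overlapping), in Vcan at 2 and in Matn1 and 1 Matn4 window at 1, and in 35.7% of all windows. CCAAT occurred in Acan, Vcan, Matn3 and both Matn4 windows (37.4% of all windows), and the only TATA-type match was in Cilp, at -30 (11.3% of all windows). Guanine and cytosine made up 74.0% of the Acan window, 54.3% of the Hapln1 window, 61.3% of the Matn1 window and 55.7% of the Cilp window, with a median of 52.7% over all windows. These matches describe the letters of the windows alone.

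Most of the 9 genes were lower outside the round layer. In the flat layer 6 fell and 1 rose relative to the round layer. In the hypertrophic layer 7 fell and 0 rose relative to the round layer, and 4 fell and 0 rose relative to the flat layer (limma with litter as a block, Benjamini-Hochberg adjusted p below 0.05 over 11313 genes). Over all genes tested, 17.0% were called between flat and round, 25.1% between hypertrophic and round and 11.3% between hypertrophic and flat. By direction, 8.64% were lower and 8.39% higher between flat and round, 12.7% and 12.4% between hypertrophic and round, and 5.22% and 6.12% between hypertrophic and flat. The median log2 difference over the 9 genes was -0.997 for flat minus round, -0.55 for hypertrophic minus flat and -1.21 for hypertrophic minus round, where the medians over all genes tested were -0.01, -0.01 and 0.01. All 9 genes passed the filter on dim signals. In an F test over the 3 layers 8 of the 9 genes passed, all but Matn3, where 28.4% of all genes did. Of their 16 probe sets above the filter, tested singly, 10 fell and 0 rose between hypertrophic and round, where 20.4% of all probe sets were called in either direction. Matn1 and Matn3 were the genes not called in that contrast. The 3 contrasts share arrays and are not independent of each other.

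**Figure D1:**
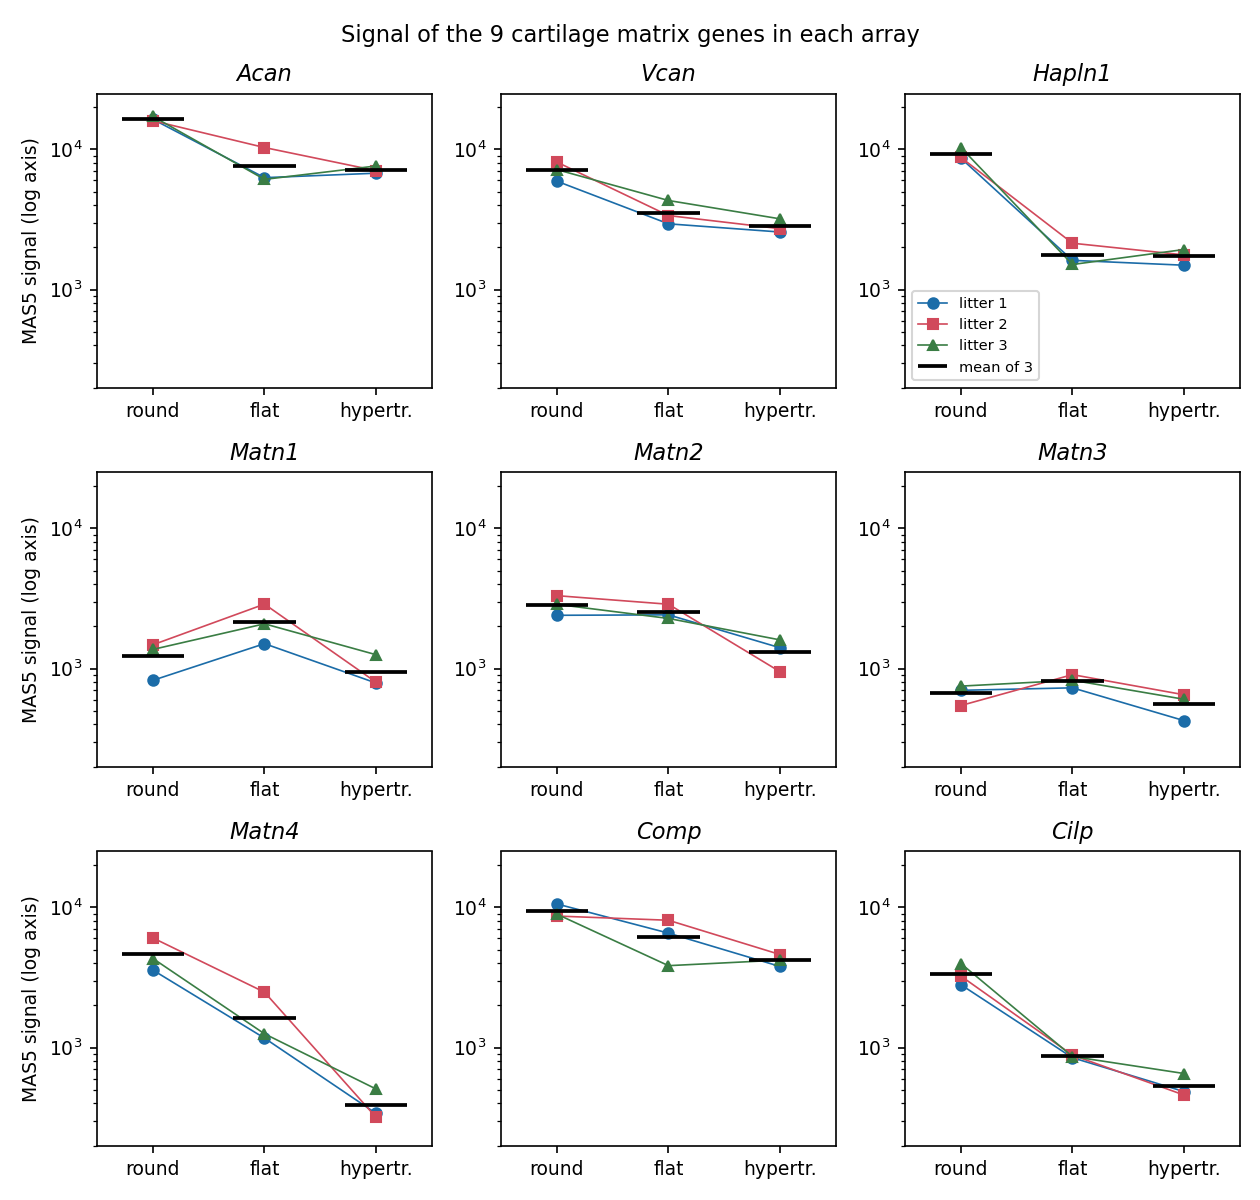
MAS5 signal (log axis) of the brightest probe set of each of the 9 genes on the 9 arrays, by layer, with a line and symbol for each litter and a black bar for the mean of 3. Acan and Hapln1 drop between round and flat, Matn4 and Cilp step down at both boundaries, and Matn1 peaks in the flat layer in all 3 litters.

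Aggrecan had signals of 16364, 15988 and 17148 in the round layer, 6279.9, 10297 and 6107 in the flat layer, and 6758, 7050.4 and 7608 in the hypertrophic layer (litters 1, 2 and 3 throughout). The round arrays lay above all others, while the flat and hypertrophic arrays overlapped. Acan fell 2.24-fold in the flat relative to the round layer (log2 -1.17 ± 0.16, SE, limma adjusted p = 0.000387) and 2.31-fold in the hypertrophic relative to the round layer (-1.21 ± 0.16, adjusted p = 0.000173). Between the hypertrophic and flat layers its difference was -0.04, with a 95% confidence interval of -0.40 to 0.31 (adjusted p = 0.919). The flat array of litter 2 stood above the other flat arrays, and without it the hypertrophic minus flat difference was 0.22.

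Link protein, which locks aggrecan to hyaluronan, was measured by 4 probe sets, and they did not give the same order of the lower layers. The brightest, 1438020_at, read 8647, 8754 and 10299 in the round layer, 1616, 2142 and 1510.1 in the flat layer, and 1492, 1768 and 1931 in the hypertrophic layer. By this probe set Hapln1 fell 5.24-fold in the flat layer (log2 -2.39 ± 0.15, adjusted p = 1.7e-06) and 5.28-fold in the hypertrophic layer (-2.40 ± 0.15, adjusted p = 2.57e-07), each against the round layer. The hypertrophic minus flat difference was -0.01, with a 95% interval of -0.33 to 0.31.

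The other 3 Hapln1 probe sets were lowest in the flat layer. Probe set 1421633_a_at read 722, 932 and 1525 in the round layer, 436, 382 and 413 in the flat layer, and 764, 845 and 895 in the hypertrophic layer, so that the hypertrophic arrays all lay above the flat ones. Probe set 1426294_at read 1084, 2976 and 3500.5 in the round layer, 727, 836 and 889.6 in the flat layer, and 1687, 1398.5 and 1933 in the hypertrophic layer. Probe set 1426295_at averaged 2882 ± 899.7 on round, 792 ± 66.0 on flat and 1247 ± 96.2 on hypertrophic arrays (SD, n = 3 each). With every probe set tested singly, all 4 fell in the flat relative to the round layer, with log2 differences of -1.25 to -2.39, where 12.5% of the 22518 probe sets tested were called in either direction. Hypertrophic minus flat was 0.98 ± 0.21 for 1421633_a_at (adjusted p = 0.013) and 1.002 ± 0.27 for 1426294_at (adjusted p = 0.0418), both higher in the hypertrophic layer, against a background of 7.47% of probe sets called. For 1426295_at it was 0.64 ± 0.19 (adjusted p = 0.0696). That difference passed without the round array of litter 1 (adjusted p = 0.00879) or 3 (0.0461) or the flat array of litter 1 (0.0404). The calls of 1421633_a_at and 1426294_at between hypertrophic and flat were not kept when single flat or hypertrophic arrays were left out: 1426294_at was lost without any 1 of these 6 arrays, with adjusted p of 0.0537 to 0.239, and 1421633_a_at was lost without the flat array of litter 2 or 3 or the hypertrophic array of litter 1 or 2, with adjusted p of 0.0556 to 0.084.

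On the round array of litter 1, the one with the high 3'/5' ratios, 1426294_at read 1084 against 2976 and 3500.5 in the other litters, and 1426295_at read 1869 against 3186 and 3590.0, whereas 1438020_at read 8647 against 8754 and 10299. Without that array the hypertrophic minus round difference of 1426294_at was -0.92 (adjusted p = 0.00121) in place of -0.43 (adjusted p = 0.288). That of 1421633_a_at was -0.27 (adjusted p = 0.397), and it passed without no single array (adjusted p of 0.102 to 0.989). For 1426295_at hypertrophic minus round was -1.14 (adjusted p = 0.00128). The part of RNA integrity in the disagreement of the probe sets was not tested.

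**Figure D2:**
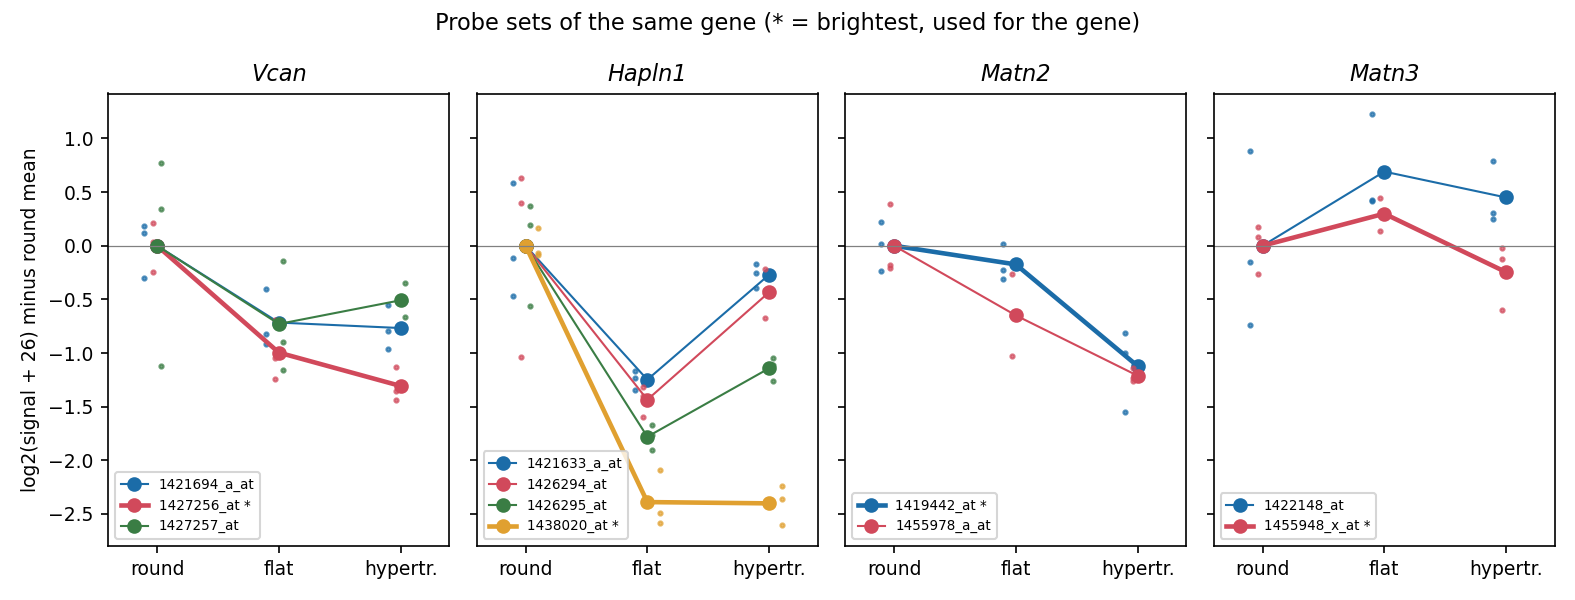
Log2(signal + 26) of each probe set that passed the filter, relative to its own round mean, for Vcan, Hapln1, Matn2 and Matn3; lines join layer means and small points are single arrays. The 4 Hapln1 probe sets all lie below 0 in the flat layer, and 3 of them, not the brightest, are higher again in the hypertrophic layer.

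Versican, the hyaluronan-binding relative of aggrecan, read 5925.5, 8107 and 7167 in the round layer, 2944, 3372 and 4317 in the flat layer, and 2574, 2718.5 and 3195 in the hypertrophic layer by its brightest probe set, 1427256_at. The round arrays stood clear of both other layers. Vcan fell 2-fold in the flat layer (log2 -0.997 ± 0.13, adjusted p = 0.000246) and 2.47-fold in the hypertrophic layer (-1.31 ± 0.13, adjusted p = 1.44e-05), both relative to the round layer, and hypertrophic minus flat was -0.31 ± 0.13 (adjusted p = 0.159). A further probe set, 1421694_a_at, fell in the same comparisons (log2 -0.72 ± 0.15, adjusted p = 0.00691, and -0.77 ± 0.15, adjusted p = 0.0028). Probe set 1427257_at was dimmer and more scattered, at 293 to 1157 in the round layer, 285 to 603 in the flat layer and 410.1 to 519.7 in the hypertrophic layer, and passed in no contrast. The remaining 5 Vcan probe sets lay below the filter, with signals of 1.08 to 197 over the 9 arrays, and were not tested. With all 8 averaged, the Vcan differences were -0.23 (flat minus round, adjusted p = 0.514) and -0.40 (hypertrophic minus round, adjusted p = 0.197), an average that weights the dim probe sets equally.

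The 4 matrilins did not share a pattern. Matrilin-4, which had the largest hypertrophic minus round difference of the 9 genes, read 3568, 6049.5 and 4317 in the round layer, 1169, 2484 and 1254 in the flat layer, and 339.7, 319 and 507 in the hypertrophic layer. No arrays of different layers overlapped. Matn4 fell 2.91-fold in the flat relative to the round layer (log2 -1.54 ± 0.23, adjusted p = 0.000672), 3.85-fold in the hypertrophic relative to the flat layer (-1.95 ± 0.23, adjusted p = 0.000276) and 11.2-fold in the hypertrophic relative to the round layer (-3.49 ± 0.23, adjusted p = 5.81e-07). Hypertrophic minus flat was -1.71, -2.86 and -1.26 in litters 1, 2 and 3, down in each but uneven in size.

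Matrilin-1, the first matrilin described and a marker of non-articular cartilage, ran the other way between round and flat. It read 825, 1479 and 1371 in the round layer, 1506, 2881 and 2086 in the flat layer, and 789.7, 799.9 and 1256 in the hypertrophic layer. Every flat array lay above every array of the other layers, which overlapped each other. Matn1 rose 1.74-fold in the flat relative to the round layer (log2 0.80 ± 0.19, adjusted p = 0.0125) and fell 2.22-fold in the hypertrophic relative to the flat layer (-1.15 ± 0.19, adjusted p = 0.0023). Hypertrophic minus round was -0.35, with a 95% interval of -0.77 to 0.07 (adjusted p = 0.209). The flat against round call was not past the threshold without the litter block (adjusted p = 0.104) or without the flat array of litter 2 (log2 0.59, adjusted p = 0.0818). Skeletal muscle markers were also highest in the flat layer, where all 10 of the list were higher than in the round layer and all 10 were lower in the hypertrophic than in the flat layer. Over all genes tested, 17.0% and 11.3% were called in these comparisons. The summed signal of the muscle markers was 95783 to 158486 on the round arrays, 237634 to 403692 on the flat arrays and 95511 to 239209 on the hypertrophic arrays. The flat array of litter 3 had the largest muscle sum and that of litter 2 the largest Matn1 signal, and the part of muscle in the Matn1 difference was not tested.

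Matrilin-2, which is widespread in connective tissues beyond cartilage, read 2399, 3311 and 2870.3 in the round layer, 2417, 2877 and 2278 in the flat layer, and 1408, 950.4 and 1602 in the hypertrophic layer. The round and flat arrays overlapped and the hypertrophic arrays lay below both. Matn2 fell 1.93-fold in the hypertrophic relative to the flat layer (log2 -0.95 ± 0.19, adjusted p = 0.00827) and 2.17-fold relative to the round layer (-1.12 ± 0.19, adjusted p = 0.00111), and flat minus round was -0.17, with a 95% interval of -0.60 to 0.25. Its other probe set, 1455978_a_at, placed the flat layer between the others, at 3979, 2666 and 2618 in the round layer, 2517, 1476 and 1911 in the flat layer, and 1247.5, 1363 and 1274 in the hypertrophic layer. By that probe set Matn2 also fell in the flat relative to the round layer (-0.65 ± 0.17, adjusted p = 0.0265), a call lost without the round array of litter 1 (adjusted p = 0.0763) or 2 (0.0877) or the flat array of litter 2 (0.135) or 3 (0.0608). Its hypertrophic minus flat difference was -0.56 ± 0.17 and not called (adjusted p = 0.0693), but passed without the round array of litter 1 (adjusted p = 0.0368). Hypertrophic minus round was -1.21 ± 0.17 (adjusted p = 0.000323).

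Matrilin-3, in which mutations cause multiple epiphyseal dysplasia in humans, passed the threshold in no contrast. Its brightest probe set, 1455948_x_at, read 700.1, 545.5 and 750.2 in the round layer, 729.5, 906 and 826 in the flat layer, and 426, 651 and 604.5 in the hypertrophic layer. Hypertrophic minus flat was -0.55 (95% interval -0.95 to -0.14, adjusted p = 0.0824), with hypertrophic arrays all below the flat ones. Flat minus round was 0.30 (-0.10 to 0.70, adjusted p = 0.31) and hypertrophic minus round was -0.25 (-0.65 to 0.16, adjusted p = 0.368). The hypertrophic against flat difference passed the threshold without the round array of litter 1 (adjusted p = 0.0458). The other probe set, 1422148_at, spread widely among round arrays, at 199, 312 and 667.5, against 475 to 852 in the flat layer and 421 to 624 in the hypertrophic layer, and was not called either. The ending _x_at marks a probe set some of whose probes can match other transcripts.

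**Figure D3:**
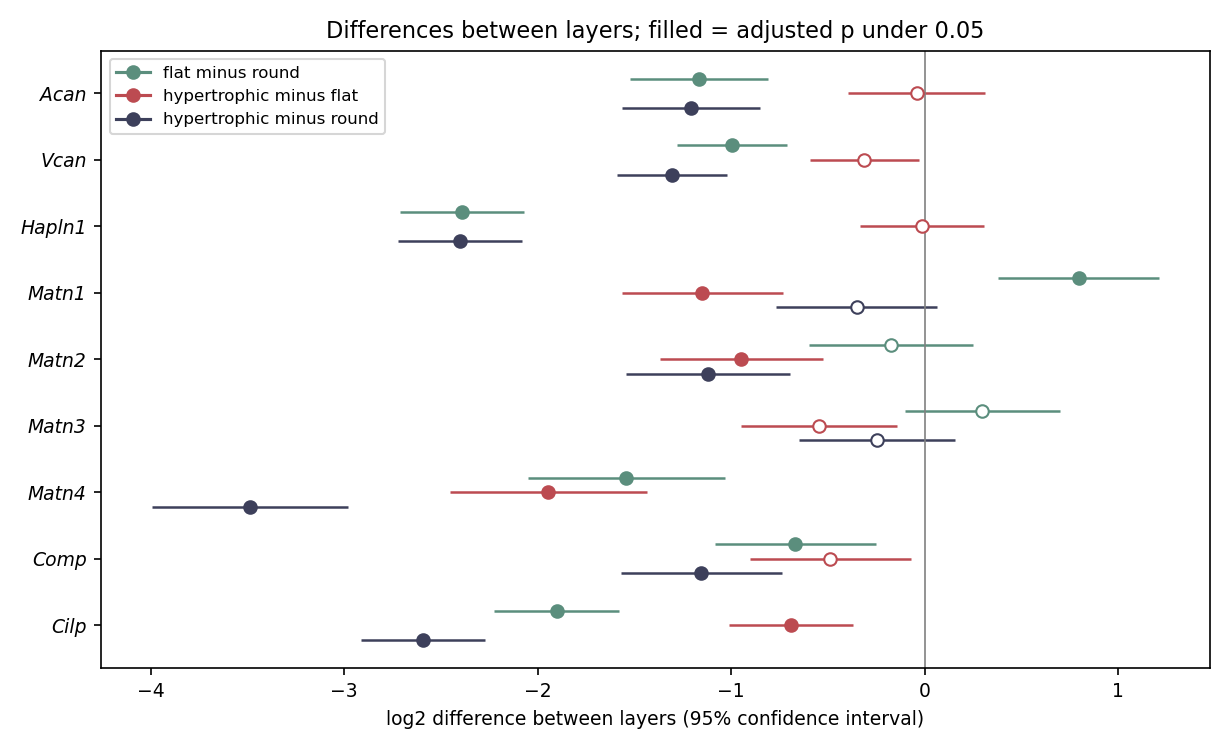
Log2 differences between layers (x axis) for each gene, with 95% confidence intervals from limma; filled points passed an adjusted p of 0.05. Matn1 is the gene with a filled point to the right of 0, at 0.80 for flat minus round, and Matn4 reaches furthest to the left, at -3.49 for hypertrophic minus round.

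Comp, the pentameric thrombospondin of cartilage and tendon whose mutations cause pseudoachondroplasia in humans, read 10569, 8665 and 8934 in the round layer, 6547, 8088 and 3838 in the flat layer, and 3787.5, 4608 and 4205 in the hypertrophic layer. The round arrays lay above both other layers, and the flat arrays were spread widely, the one of litter 3 lying among the hypertrophic arrays. Comp fell 2.23-fold in the hypertrophic relative to the round layer (log2 -1.15 ± 0.19, adjusted p = 0.000803), a call kept under all 21 alternatives, with adjusted p of up to 0.00897. Its flat minus round difference was -0.67 ± 0.19 (adjusted p = 0.031), and -0.69, -0.10 and -1.21 in litters 1, 2 and 3. That call was lost in 8 of 21 alternatives: without the round array of litter 1 (adjusted p = 0.0889) or 3 (0.128), without the flat array of litter 1 (0.0695) or 3 (0.157), without both the litter 1 round array and the litter 3 flat array (log2 -0.17, 0.417), without the litter block (0.097), without a variance trend (0.0959) and with array weights (0.055). Hypertrophic minus flat was -0.49 ± 0.19 (adjusted p = 0.131), and it passed in 3 of 21 alternatives: without the flat array of litter 3 (-0.78, adjusted p = 0.011), without both that array and the litter 1 round array (-0.82, adjusted p = 0.000151), and with array weights (-0.51, adjusted p = 0.0334).

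Cilp read 2807.5, 3235 and 3977 in the round layer, 847, 884 and 864 in the flat layer, and 486, 459 and 654 in the hypertrophic layer. The flat arrays lay close together, with an SD of 18.3, and no layers overlapped. Cilp fell 3.74-fold in the flat relative to the round layer (log2 -1.90 ± 0.15, adjusted p = 7.54e-06) and 6.03-fold in the hypertrophic relative to the round layer (-2.59 ± 0.15, adjusted p = 1.41e-07). In the hypertrophic relative to the flat layer it fell 1.61-fold (-0.69 ± 0.15, adjusted p = 0.00994), a call lost without the flat array of litter 1 (adjusted p = 0.0688) or the hypertrophic array of litter 2 (0.0758).

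By the arrays themselves, 7 of the 9 genes had flat and round arrays that did not overlap, against 25.3% of all genes tested. Hypertrophic and round arrays did not overlap for 7 (36.5% of all genes), and hypertrophic and flat arrays for 5 (22.7%). Within the flat layer the array of litter 2 was the highest in 8 of the 9 genes, Vcan being the exception, where 35.1% of all genes tested were highest on that array. Within the hypertrophic layer the array of litter 3 was the highest in 7 of the 9, where 34.1% of all genes were. In the round layer litters 2 and 3 were each the highest in 4 of the 9 genes, where 29.3% and 30.6% of all genes were. Litter 1 was the highest round array in 1 of the 9, where 40.1% of all genes were. The sums over the 5 chondrocyte markers, none of them among the 9 genes, were 84702 on the flat array of litter 2, against 68829 and 56852 on the flat arrays of litters 1 and 3, and 68317 on the hypertrophic array of litter 3, against 62136 and 61743.5 in litters 1 and 2. The flat array of litter 2 also had the largest flat sums for perichondrium (267338), osteoblast (108385), osteoclast (17356), endothelial (6886) and macrophage (11249) markers, and the largest chondrocyte sum of the round layer was that of litter 3 (91786). The perichondrium and osteoblast lists share Col1a1, so their sums are not separate. The comparison of marker sums was chosen after the values were seen, and the part of chondrocyte content was not tested.

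Markers of other cells moved between the layers too, and their part in the differences above was not tested. The background for the counts that follow is the share of all genes tested that was called. It was 17.0% between flat and round, 11.3% between hypertrophic and flat and 25.1% between hypertrophic and round. Among 10 perichondrium, fibroblast and tendon markers, tissues that also make Comp, Cilp and versican, 5 fell and 1 rose in the flat relative to the round layer, and 7 fell and 1 rose in the hypertrophic relative to the round layer. Their summed signal was 239921 to 279419 on the round, 197620.5 to 267338 on the flat and 177811 to 194385 on the hypertrophic arrays. Of 6 tested osteoclast markers, all 6 rose in each contrast, with sums over 7 markers of 4474 to 5832.5 on the round, 12486 to 17356 on the flat and 70815 to 93760.2 on the hypertrophic arrays. Of 5 tested osteoblast markers 4 rose in the flat relative to the round layer, 3 in the hypertrophic relative to the flat and 4 in the hypertrophic relative to the round layer, and of 4 tested neutrophil markers 4, 2 and 4 rose, with 0 falling in either list. The osteoblast sum was 63685 to 89226 on the round, 67469 to 108385 on the flat and 102811 to 121265 on the hypertrophic arrays, and the neutrophil sum 2164 to 3010.5, 4653 to 10863 and 6870.3 to 15614. Most of the osteoblast sum was Col1a1, also in the perichondrium list, with layer means of 72528, 77576 and 68816. The other osteoblast markers rose more steeply than the sum. In the same order of layers, Dmp1 had 988, 4143 and 27361, and Ifitm5 349.5, 4812 and 10820. Sp7 had 274, 1944 and 3038, and Omd 192, 819 and 1585. No marker list summed to 0 on any array.

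Across the 9 arrays, which share litters and fall into 3 layers, the log2 values of Acan and Hapln1 had a Pearson correlation of 0.972, Vcan and Cilp of 0.961 and Hapln1 and Cilp of 0.958. Matn1 stood apart from Acan (-0.02), Hapln1 (-0.12), Vcan (0.13) and Cilp (0.09), and was closest to Matn3 (0.69). By the same measure over 11312 other genes, Hapln1 was among the 3 genes most like Acan, after the sorting nexin Snx18 (0.985) and Ahcyl1 (0.973). The genes most like Hapln1 were Ndufa4l2, a hypoxia-induced mitochondrial protein (0.988), Anxa4 (0.987) and Osbpl9 (0.986), and those most like Vcan were the glutamine transporter Slc38a1 (0.991), the hedgehog co-receptor Gas1 (0.986) and Man2a1, an enzyme of N-glycan processing (0.984). Cilp was nearest to Ltbp4, a latent TGF-beta binding protein (0.993), Adgrg2 (0.987) and Mbnl1 (0.986). For Matn4 they were Clip3 (0.988), Kifap3 (0.986) and Ctdsp1 (0.981), and for Comp the calcium channel gene Cacna1g (0.975), Synpo (0.971) and Dpf1 (0.968). Matn1 had Siva1 (0.969), Syde2 (0.954) and Rpl3l, a ribosomal protein of muscle (0.949). For Matn2 they were the protease inhibitor A2m (0.964), Mturn (0.958) and Echdc2 (0.956), and for Matn3 2310075K07Rik (0.919), Fam13a (0.915) and Gpd1 (0.914). These values describe 9 arrays and carry no test.

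The partners of these proteins were read from 6 lists. Of all genes tested, 17.0% were called between flat and round, 11.3% between hypertrophic and flat and 25.1% between hypertrophic and round. The same shares are the background for each list below. Of 11 tested genes that make, bind or degrade hyaluronan or belong to the lectican and link protein families, 4 fell and 2 rose in the flat relative to the round layer (median log2 -0.40), 2 fell and 3 rose in the hypertrophic relative to the flat layer (0.14), and 3 fell and 3 rose in the hypertrophic relative to the round layer (-0.12). The hyaluronan synthases Has1 and Has2 fell in the flat relative to the round layer (log2 -2.01 ± 0.34, adjusted p = 0.00151, and -1.39 ± 0.43, adjusted p = 0.0426). Their signals were 635 ± 268 and 458 ± 102 on the round arrays. On the flat arrays they were dim and scattered, at 167 ± 161 and 204 ± 191 (SD, n = 3 each). Tnfaip6, which transfers heavy chains onto hyaluronan, had mean signals of 3400.5 ± 319, 1005 ± 24.3 and 565 ± 118 in round, flat and hypertrophic samples (SD, n = 3 each) and was lower in each later layer. Cemip, which is needed for hyaluronan breakdown, had 175.5 ± 21.0, 323 ± 69.0 and 2311 ± 326 and was 6.75-fold higher in the hypertrophic than in the flat layer (log2 2.75 ± 0.18, adjusted p = 5.92e-06). In the hypertrophic relative to the flat layer the brain lectican gene Bcan rose (1.43 ± 0.28, adjusted p = 0.00628) and Lyve1, the hyaluronan receptor of lymphatic vessels, fell (-0.87 ± 0.20, adjusted p = 0.014).

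Proteases that cut aggrecan, versican, Comp or matrilins, with their inhibitors, went both ways. Of 16 tested, 2 rose and 3 fell in the flat relative to the round layer (median log2 0.10), 3 rose and 0 fell in the hypertrophic relative to the flat layer (0.08), and 5 rose and 3 fell in the hypertrophic relative to the round layer (0.31). Mmp13, the collagenase of hypertrophic cartilage, had 4805 ± 1290.1, 9881 ± 2097 and 34828 ± 2145 in round, flat and hypertrophic samples and was 7.39-fold higher in the hypertrophic than in the round layer (adjusted p = 6.68e-07). The tissue inhibitor gene Timp1 rose 2.83-fold in the hypertrophic relative to the round layer (adjusted p = 3.53e-05). The serine protease gene Htra1 fell in the same comparison (-1.95 ± 0.13, adjusted p = 4.22e-07), and Adamts15 in the flat relative to the round layer (-1.04 ± 0.24, adjusted p = 0.0115). Other Adamts genes differed in direction. Adamts4 rose in the flat and hypertrophic layers against the round layer (0.70 ± 0.18, adjusted p = 0.0197, and 1.25 ± 0.18, adjusted p = 0.000299). Adamts1 fell in both (-0.92 ± 0.16, adjusted p = 0.00173, and -1.06 ± 0.16, adjusted p = 0.00041). Adamts9 rose in the hypertrophic relative to the round layer (0.41 ± 0.14, adjusted p = 0.0463), and Adamts5 was called in no contrast. Mmp14, a membrane-anchored protease, rose by 0.58 ± 0.12 in the hypertrophic relative to the flat layer (adjusted p = 0.00753).

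Of the relatives of Comp and Cilp, namely Thbs1, Thbs2, Thbs3, Thbs4 and Cilp2, 2 fell in the flat relative to the round layer (median -0.44), 4 fell in the hypertrophic relative to the flat layer (-1.27) and 4 fell in the hypertrophic relative to the round layer (-0.99), and 0 rose. Thbs1 was the gene not called in either comparison with the hypertrophic layer (hypertrophic minus flat -0.04, adjusted p = 0.947, and hypertrophic minus round -0.47, adjusted p = 0.125). Thbs4, a thrombospondin of tendon, had 9435 ± 695, 2668 ± 475 and 976 ± 379 in round, flat and hypertrophic samples and was 9.84-fold lower in the hypertrophic than in the round layer (log2 -3.30 ± 0.20, adjusted p = 2.56e-07). Thbs3 had 6277 ± 1216, 4277 ± 799.5 and 1754 ± 344. Cilp2 had 705 ± 102.5, 948 ± 415 and 339.9 ± 32.3, and fell in the hypertrophic relative to the flat layer (-1.31 ± 0.21, adjusted p = 0.00177).

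Among 22 other cartilage matrix genes, 11 fell and 0 rose in the flat relative to the round layer (median log2 -0.46), 9 fell and 2 rose in the hypertrophic relative to the flat layer (-0.36), and 15 fell and 2 rose in the hypertrophic relative to the round layer (-0.94). The joint lubricant gene Prg4 fell 68.8-fold in the hypertrophic relative to the round layer, Ucma, a Gla protein of upper-zone chondrocytes, 15.1-fold, and the leucine-rich protein gene Prelp 9.72-fold. The hypertrophic mean signal of Ucma, 108.9, lay below the filter signal of 122. The collagen-binding proteoglycan gene Fmod fell 2.95-fold in the hypertrophic relative to the flat layer (adjusted p = 0.000276).

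Of 22 tested genes of chondroitin sulfate chain synthesis, transporters included, 4 fell and 2 rose in the flat relative to the round layer (median log2 -0.26), 1 fell and 2 rose in the hypertrophic relative to the flat layer (0.15), and 6 fell and 4 rose in the hypertrophic relative to the round layer (-0.09). Of all genes tested, 17.0%, 11.3% and 25.1% were called in these comparisons, also in both directions. Csgalnact1, which starts the chain on aggrecan, had 2304.5 ± 299, 1152.5 ± 331 and 813 ± 173 in round, flat and hypertrophic samples and fell 2.80-fold in the hypertrophic relative to the round layer (adjusted p = 4.16e-05). Fam20b, a xylose kinase of the linkage region, fell in the flat relative to the round layer (-1.08 ± 0.23, adjusted p = 0.00658). Among the chondroitin sulfotransferase genes, Chst13 had 35.3 ± 11.9, 285 ± 77.3 and 425 ± 118 and was higher in the flat than the round layer (adjusted p = 0.000229). Its round signal lay near the pseudocount of 26 and below the filter signal of 122, so no size is given for that difference. Chst11 rose by 0.77 ± 0.16 in the hypertrophic relative to the flat layer (adjusted p = 0.00949) and Chst7 by 1.38 ± 0.30 (adjusted p = 0.0111). Dse, the epimerase that makes dermatan sulfate, fell in that comparison (-0.72 ± 0.16, adjusted p = 0.0128).

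Of 11 tested transcription factors known at the enhancers of cartilage genes, 9 fell and 2 rose in the flat relative to the round layer (median log2 -0.997), 4 fell and 1 rose in the hypertrophic relative to the flat layer (-0.41), and 8 fell and 2 rose in the hypertrophic relative to the round layer (-1.51). Sox9, the factor that activates Acan, Hapln1 and Matn1 in cartilage, had 1952 ± 102.5, 678 ± 275 and 316 ± 101 in round, flat and hypertrophic samples, and fell 5.94-fold in the hypertrophic relative to the round layer (adjusted p = 1.76e-06). Its partner Sox5 had 1559 ± 51.2, 446 ± 90.0 and 98.2 ± 26.1, and fell 12.9-fold in the same comparison (adjusted p = 9.43e-08). The hypertrophic signal of Sox5 lay below the filter signal of 122. Creb5 and Erg, factors of joint-side chondrocytes, fell in the flat relative to the round layer (-2.39 ± 0.21, adjusted p = 1.4e-05, and -1.91 ± 0.18, adjusted p = 2.02e-05). Runx3, which drives chondrocyte maturation, rose by 2.56 ± 0.25 in that comparison (adjusted p = 3.59e-05). Nfatc1 fell in the flat relative to the round layer (-0.997 ± 0.13, adjusted p = 0.000234) and rose in the hypertrophic relative to the flat layer (0.89 ± 0.13, adjusted p = 0.00105).

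**Figure D4:**
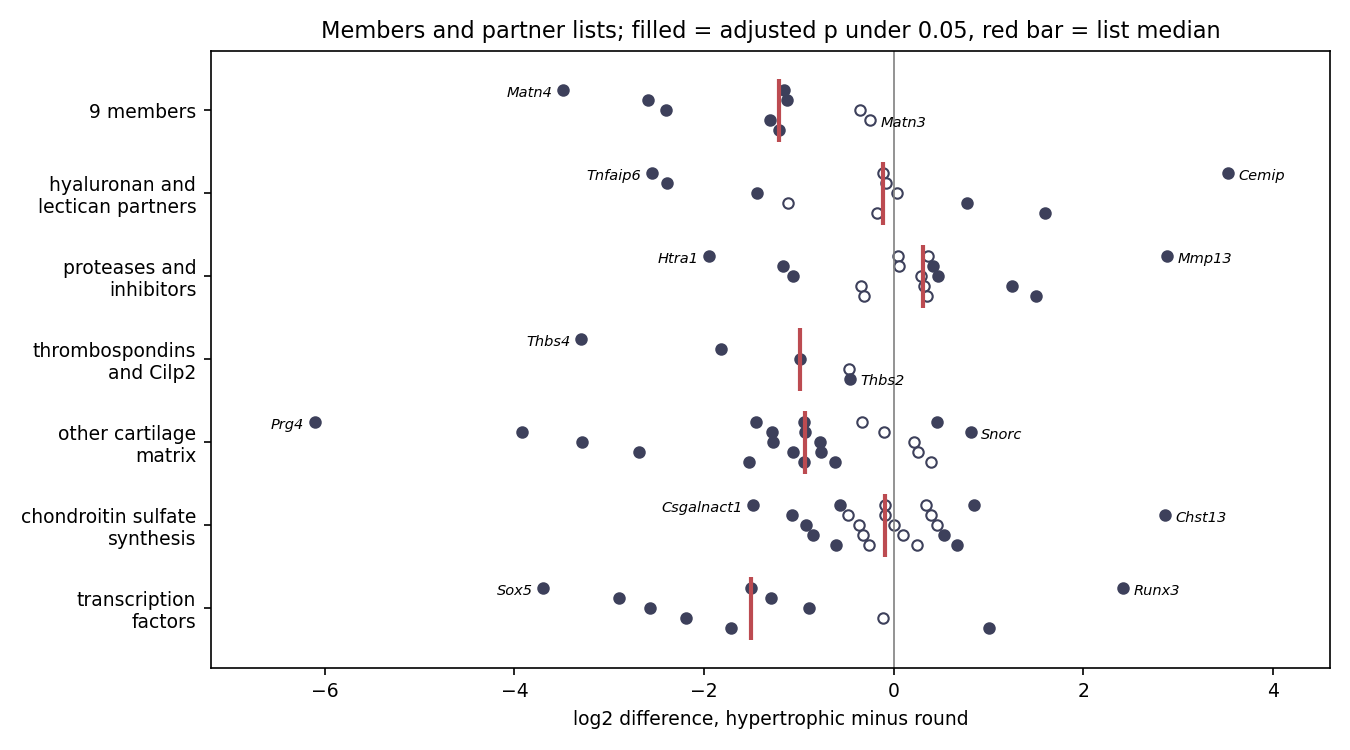
Log2 difference, hypertrophic minus round (x axis), of the 9 genes and of each tested gene of the 6 partner lists, 1 point a gene; filled points passed an adjusted p of 0.05 and red bars are list medians. The medians were -1.21 for the 9 genes, -0.12 for the hyaluronan and lectican list, 0.31 for the proteases, -0.99 for the thrombospondins and Cilp2, -0.94 for the other cartilage matrix genes, -0.09 for the chondroitin sulfate genes and -1.51 for the transcription factors.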

How the data were processed

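The values are MAS5 signal intensities on the linear scale, deposited by the authors for 45101 probe sets on 9 arrays. Affymetrix Expression Console and MAS5 are named, per the submitters' processing notes, and their versions were not given. The trimmed means of the deposited intensity columns (2% trimmed from each tail) averaged 500.003 over the 9 arrays, and no further scaling was applied in the main tests. Probe sets were named by platform annotation, updated by gene identifier (34741 of 34945 single-gene probe sets matched). Signals were taken as log2(signal + 26), the pseudocount being the 20th percentile of all values, so folds understate differences of dim genes. Each gene was read by its brightest single-gene probe set, and genes with a mean above the median of non-control probe sets (log2 7.212) were tested, 11313 of 18193.

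The limma package (3.58.1, R 4.3.3) gave the tests, from a model of layer, a fixed block for litter and a mean-variance trend. Benjamini-Hochberg adjustment was made per contrast. Every adjusted p is limma's, over all genes or all 22518 probe sets tested. The study's design text ties each sample to 1 of 3 litters. Deviations from layer means correlated at 0.167 to 0.517 in all 9 same-litter pairs and at -0.434 to 0.0815 in 18 pairs of different litters. The script was tested on simulated data. Genes named are the 9 members, the 3 genes most correlated with each, and up to 3 called genes with the largest difference per list and contrast. Further Adamts genes were named outside that rule. The members, lists and tests were chosen with earlier results of these data known. Alternatives were the block, pseudocount, filter, scaling, variance trend, array weights, probe set choice and leaving out arrays.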

Additional observations from a re-analysis of the deposited data

How the results depend on the processing

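Precision is limited by the number of arrays, 3 per layer. Of 864 recomputed values for single genes or probe sets, 811 kept direction and side of the threshold. Many of the 864 could not change direction. They include F statistics, which have no direction. They also include differences refitted with another block, without a variance trend, or without an array of a layer outside the contrast, which kept their size. Leaving out an array and testing probe sets singly, for 3 Hapln1 sets and 1 Matn2 set, was chosen after seeing the data. Sign changes occurred for differences near 0 and for means over probe sets. The Acan hypertrophic minus flat difference became 0.03 with arrays centred on medians, 0.033 with array weights, and 0.08 without the hypertrophic array of litter 2, with -0.21 to 0.22 over single arrays left out (0.22 without the flat array of litter 2). That of Hapln1 became 0.059 with median centring, 0.65 (adjusted p = 0.041, higher) as the mean of its probe sets, 0.01 and 0.15 without the flat arrays of litters 1 and 2, and 0.04 and 0.03 without the hypertrophic arrays of litters 1 and 2, with -0.19 to 0.15 over single arrays left out. Matn3 hypertrophic minus round became 0.10 as the mean of its probe sets.

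Of the 9 genes, the number higher in flat than in round was 0 without the replicate block (Matn1, adjusted p = 0.104; Comp as lower was also lost, 0.097) and 0 to 1 when arrays were left out singly. The number higher in hypertrophic than in flat was 1 with probe sets averaged. The numbers lower were 6, 4 and 7, and 5 to 6, 3 to 5 and 7 to 7 with single arrays left out (for flat over round, hypertrophic over flat and hypertrophic over round). For hypertrophic over flat, 6 were lower with array weights and 6 without both the litter 1 round array and the litter 3 flat array. Over all genes, calls without the replicate block were 935 in place of 1926, 553 in place of 1283 and 1824 in place of 2840 in the same order, and with single arrays left out 1226 to 1949, 594 to 1671 and 1784 to 2935. Array weights gave 2157 between hypertrophic and flat, and probe sets tested singly gave 4601 between hypertrophic and round. With median centring, 39.7% in place of 49.3% of the calls between flat and round were higher, and 65.2% in place of 53.9% between hypertrophic and flat. Matn3 passed between hypertrophic and flat with array weights (adjusted p = 0.0304), without the round array of litter 1 (0.0458) and without both that array and the litter 3 flat array (0.032).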

Other observations

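Some neighbours of these genes on the chromosomes were looked up in the RefSeq table of GRCm38.p6, by position among protein-coding genes, after the values were seen. Hapln1 stands next to Vcan, with Edil3, which encodes a secreted integrin-binding protein, on its other side. Edil3 had mean signals of 2051, 792 and 894 in round, flat and hypertrophic samples. It fell in the flat relative to the round layer (log2 -1.34 ± 0.21, limma adjusted p = 0.00102) and in the hypertrophic relative to the round layer (-1.204 ± 0.21, adjusted p = 0.00134). Xrcc4, a DNA repair gene on the far side of Vcan, was at 243, 220.1 and 254 and passed in no contrast.

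Acan is followed by the link protein gene Hapln3 and then by Mfge8, whose product is related to that of Edil3. Hapln3 lay below the filter, with mean signals of 116, 40.2 and 97.6. Mfge8 had 7825, 3023 and 3033, and fell against the round layer in both others (flat minus round -1.36 ± 0.15, adjusted p = 8.9e-05; hypertrophic minus round -1.33 ± 0.15, adjusted p = 4.82e-05). On the other side, Isg20 passed in no contrast, at 553, 636 and 748, and Aen beyond it, at 373, 509.8 and 598, rose in the hypertrophic relative to the round layer (0.74 ± 0.21, adjusted p = 0.0188).

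Syndecan genes, which encode cell surface heparan sulfate proteoglycans, lie near 3 of the matrilin genes, within 2 places. Sdc4, near Matn4, had 5029, 1914 and 1653 in round, flat and hypertrophic samples and fell in the flat relative to the round layer (-1.38 ± 0.14, adjusted p = 3.59e-05), and hypertrophic minus flat was -0.18 ± 0.14 (adjusted p = 0.484). Sdc1, near Matn3, had 6135, 3996 and 4147 and fell in the flat relative to the round layer (-0.61 ± 0.12, adjusted p = 0.00356). Sdc3, near Matn1, had 1838, 1297 and 1875 and was lowest in the flat layer, where Matn1 was highest, with differences of -0.51 ± 0.14 for flat minus round (adjusted p = 0.0265) and 0.54 ± 0.14 for hypertrophic minus flat (adjusted p = 0.0289). Laptm5, next to Matn1, rose in the hypertrophic relative to the round layer (1.52 ± 0.14, adjusted p = 8.83e-06), as did Slpi, next to Matn4 (0.91 ± 0.25, adjusted p = 0.0194), and Wdr35, next to Matn3, fell (-1.13 ± 0.16, adjusted p = 2e-04). No tested gene within 2 places of Matn2, Comp or Cilp passed in any contrast.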
